A study of Mus musculus with 6 samples.

Results

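Collagens, laminins, nidogens, fibronectin, tenascins, fibrillin and fibulin genes, integrin subunits and the Mmp, Adamts and Timp proteins that cut matrix or hold it back were followed as a set in whole mouse retina. The members were taken by gene symbol alone, from name patterns for these families. No measured value entered the patterns, but earlier results of these data were known when they were chosen. The patterns matched 66 of the 12145 gene symbols with a deposited mRNA value, through 73 of 15142 transcripts. For each symbol the transcript with the highest mean FPKM (fragments counted relative to transcript length and library size) over all 6 libraries is described. Retinas came from postnatal day 21 mice of 2 genotypes with 3 libraries each, wild type (WT) mice, C57BL/6 by the labels and C57Bl/6J by the study's methods, and Nrl-/- mice on that background. The Nrl-/- mice lack, in the germline and so in every cell, the transcription factor that sets photoreceptor precursors on the rod path, and their photoreceptors are cone-like. No agent was given to either group. Each library stood for a biologic replicate of its genotype. The study lists the alignments of each library, and some WT libraries had fewer than any Nrl-/- library. The values used here are FPKM without counts, so the number of reads behind a single value is unknown.

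In this tissue the extracellular matrix is not spread evenly. Basement membranes of laminin, nidogen and type IV collagen lie at the vitreal surface, around vessels and under the pigment epithelium, while the vitreous is built on fibrils of collagen types II, IX, V and XI. Between neurons the matrix is mostly proteoglycan, hyaluronan and tenascin. Integrins are pairs of an alpha and a beta subunit that bind these proteins at the cell surface. Mmp and Adamts enzymes are zinc proteases that trim matrix and cell-surface proteins, and Timp proteins block them.

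The labels were checked first on the targeted gene. Nrl (NM_001136074) had an FPKM of 552, 583 and 500 in the WT libraries and of 0.919, 0.879 and 0.959 in the Nrl-/- libraries. All 8 rod markers were lower and all 8 cone markers were higher in Nrl-/- retina. Of 12 markers of fibroblasts, sclera and choroid 3 had a value, and Dcn and Lum, which define those cells, were not among them. Summed FPKM of 8 pigment epithelium markers ran from 14.1 to 93.4 over the WT and from 40.3 to 72.9 over the Nrl-/- libraries, so the WT range enclosed that of the Nrl-/- libraries. Summed FPKM of 10 Müller glia markers was 1153 to 1232 in WT and 1255 to 1339 in Nrl-/- retina, that of 13 endothelial markers 64.8 to 72.7 and 64.8 to 69.4, that of 7 pericyte and smooth muscle markers 27.5 to 29.9 and 34.0 to 42.7, and that of 10 microglia and macrophage markers 22.3 to 24.3 and 27.5 to 30.2. Of these lists 4, 4, 1 and 5 markers rose and 0, 1, 0 and 0 fell, in the same order, against 28.3% and 10.2% of all symbols. With median-of-ratios scaling 3, 4, 1 and 4 rose and 2, 2, 0 and 0 fell, and the part of these cells in the results below was not tested. In bulk tissue fewer cells of a type and less RNA per cell cannot be told apart.

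Large changes were few in the matrix set, as they were over all symbols. On the log2(FPKM + 1) scale tenascin C and integrin alpha 4 rose most and 3 low collagen chains fell most, while most members did not pass the test between genotypes. Of 66 members 15 rose, 5 fell and 46 did not pass the test (limma on the deposited log2(FPKM + 1), adjusted p under 0.05 after Benjamini-Hochberg adjustment over all mRNA transcripts). The members that rose were 22.7% of the set, against 28.3% of all symbols, and those that fell were 7.58%, against 10.2%. A fold of at least 1.5 on the log2(FPKM + 1) scale was reached by 2 rises, Tnc (tenascin C) and Itga4 (integrin alpha 4), and by 3 falls, the collagen genes Col19a1, Col4a3 and Col5a3, while 5.78% of all symbols rose and 3.72% fell by as much. The table keeps a transcript once any library reaches an FPKM of 1, so a low gene can enter it only where it is high. Of 66 members 56 reached that level in both genotypes, and 13 of these rose and 2 fell. The matching share over all symbols was not counted. The other 5 calls are of genes that entered through the genotype where they were higher, Col19a1, Col4a3 and Col5a3 through WT and Col4a5 and Col17a1 through Nrl-/- retina. A difference in that direction is what such a filter selects, so these 5 calls are given as descriptions. The median log2 change (Nrl-/- minus WT, in log2(FPKM + 1)) was 0.06 over the members and 0.09 over all symbols. With median-of-ratios scaling the number of members that rose went to 7, against 17.2% of all symbols, and 5 fell, against 15.5%. Without Nrl-/- replicate 2 it was 8 and without Nrl-/- replicate 1 it was 9, and the number that fell was 3 without WT replicate 2, without Nrl-/- replicate 1 or without Nrl-/- replicate 3.

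**Figure D1:**
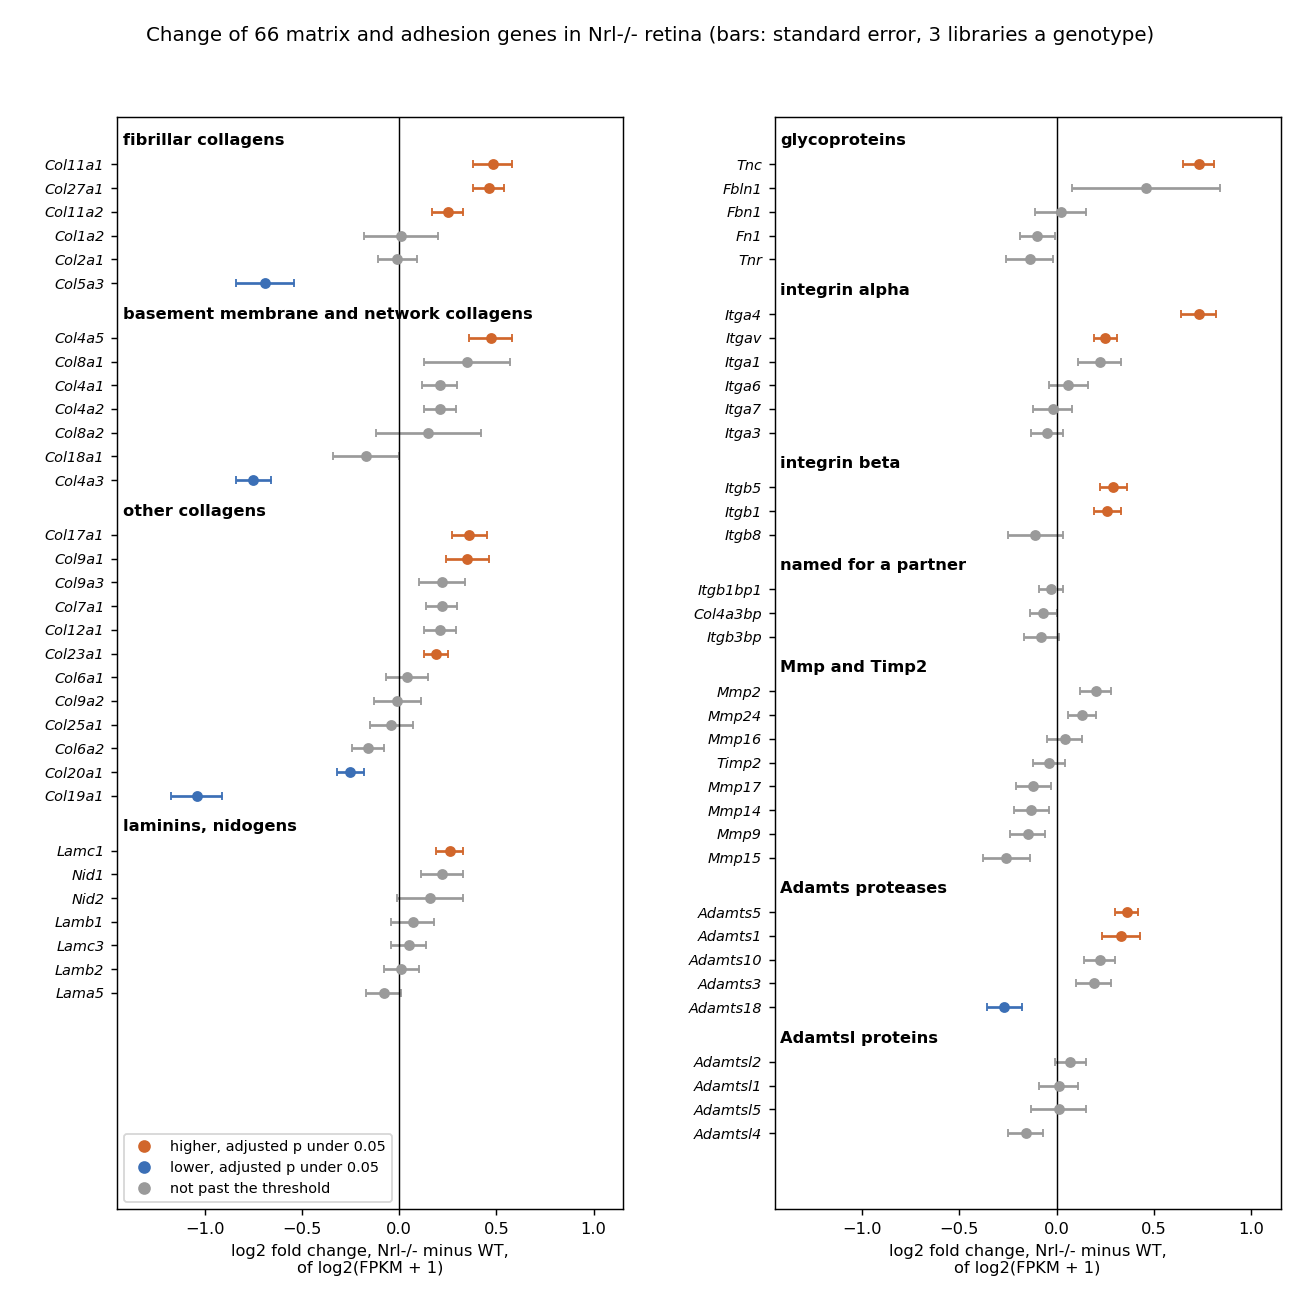
Log2 fold change (Nrl-/- minus WT, of log2(FPKM + 1)) of each of the 66 members, grouped by role, with bars for the standard error and colors for the limma call. Points lie from -1.04 (Col19a1) to 0.73 (Tnc and Itga4), and none of the Mmp genes, Timp2 or the Adamtsl genes is colored.

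The largest falls of the set were in 3 collagen chains, each of which entered the table through WT libraries alone. Col19a1 encodes the chain of type XIX collagen, a fibril-associated collagen that in mouse brain is made by subsets of neurons. Its FPKM was 1.16, 1.11 and 1.93 in the WT libraries and 0.149, 0.125 and 0.181 in the Nrl-/- libraries. Every Nrl-/- value was below every WT value, and WT replicate 3 stood above the other WT libraries. The WT mean of 1.40 ± 0.458 and the Nrl-/- mean of 0.152 ± 0.0281 (SD, n = 3) gave a WT to Nrl-/- ratio of 9.24, and the log2 change was -1.04 (standard error 0.13, limma adjusted p = 0.00031). In NCBIM37 (mm9) coordinates the gene spans chr1:24268729-24594311, minus strand.

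Col4a3, on chromosome 1 from 82583496 to 82718634, encodes a type IV collagen chain that joins the chains of Col4a4 and Col4a5 in the basement membranes of kidney glomeruli and some other tissues. Its FPKM was 1.13, 1.33 and 1.11 in WT and 0.338, 0.329 and 0.248 in Nrl-/- retina. The values of each genotype lay close together and did not overlap. The log2 change was -0.75 (standard error 0.09, limma adjusted p = 0.00025), with a WT to Nrl-/- FPKM ratio of 3.90. Its partner chain Col4a5, on chromosome X from 137909928 to 138123778, moved the other way. Its FPKM was 0.569, 0.892 and 0.647 in WT and 1.16, 1.58 and 1.31 in Nrl-/- retina, again without overlap, for a log2 change of 0.47 (standard error 0.11, limma adjusted p = 0.0090), and the gene entered the table through Nrl-/- libraries alone. The other Col4a5 transcript, NM_001163155, went from 0.539 to 1.38 in mean FPKM and shares exons, and so reads, with the first.

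Col5a3, on chromosome 9 from 20574494 to 20619511, encodes a chain of type V collagen, which joins and limits the width of fibrils. Its FPKM was 0.753, 0.705 and 1.53 in WT and 0.189, 0.223 and 0.231 in Nrl-/- retina. WT replicate 3 was again the highest and was the 1 library that brought the gene past the filter, and no Nrl-/- value came near the lowest WT value. The log2 change was -0.69 (standard error 0.15, limma adjusted p = 0.0062), given as a description because the filter selects such a fall. Without WT replicate 3 it was -0.51, but without that library the gene would not have entered the table. Under the 17 alternatives that tested Col5a3 its adjusted p ran from 0.0027 to 0.064, and both stricter FPKM filters removed it. All 3 of these genes were below an FPKM of 2 in every library, where the 1 added before taking logarithms holds a log2 change below that of plain FPKM.

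On the log2(FPKM + 1) scale the largest rises were in a matrix glycoprotein and in an integrin subunit, both better expressed. As a ratio of mean FPKM, Nrl-/- to WT, Col4a5 at 1.92, Tnc at 1.90, Col11a1 at 1.83 and Itga4 at 1.70 stood in another order. Tnc encodes tenascin C, a large glycoprotein of developing and injured tissue that loosens adhesion to fibronectin. Its FPKM was 3.0, 2.41 and 2.63 in WT and 4.94, 5.02 and 5.32 in Nrl-/- retina, so the genotypes were well apart and each was tight. The log2 change was 0.73 (standard error 0.08, limma adjusted p = 0.00011), from 2.68 ± 0.298 to 5.09 ± 0.201 FPKM (SD, n = 3). Tnc spans chr4:63620819-63681760, minus strand.

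Itga4 encodes integrin alpha 4, which pairs with beta 1 or beta 7 and binds fibronectin and the vascular adhesion protein VCAM-1. Its FPKM was 10.4, 10.8 and 13.4 in WT and 19.4, 19.5 and 20 in Nrl-/- retina, where the 3 libraries were nearly equal. The log2 change was 0.73 (standard error 0.09, limma adjusted p = 0.00021), and the gene lies on chromosome 2 from 79095583 to 79173280. Itga4 shares 1124 of its 13978 exon bases with Cerkl on the opposite strand. Cerkl, a ceramide kinase-like gene, had an FPKM of 11.6, 8.99 and 13.6 in WT and 18.3, 17.4 and 18.6 in Nrl-/- retina, and the library kit does not mark strand. Reads from the shared bases can therefore belong to either gene, and their part in the change was not tested. Of the 20 called members it is the 1 that shares at least 5% of its exon bases with another protein-coding gene of the GENCODE annotation.

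**Figure D2:**
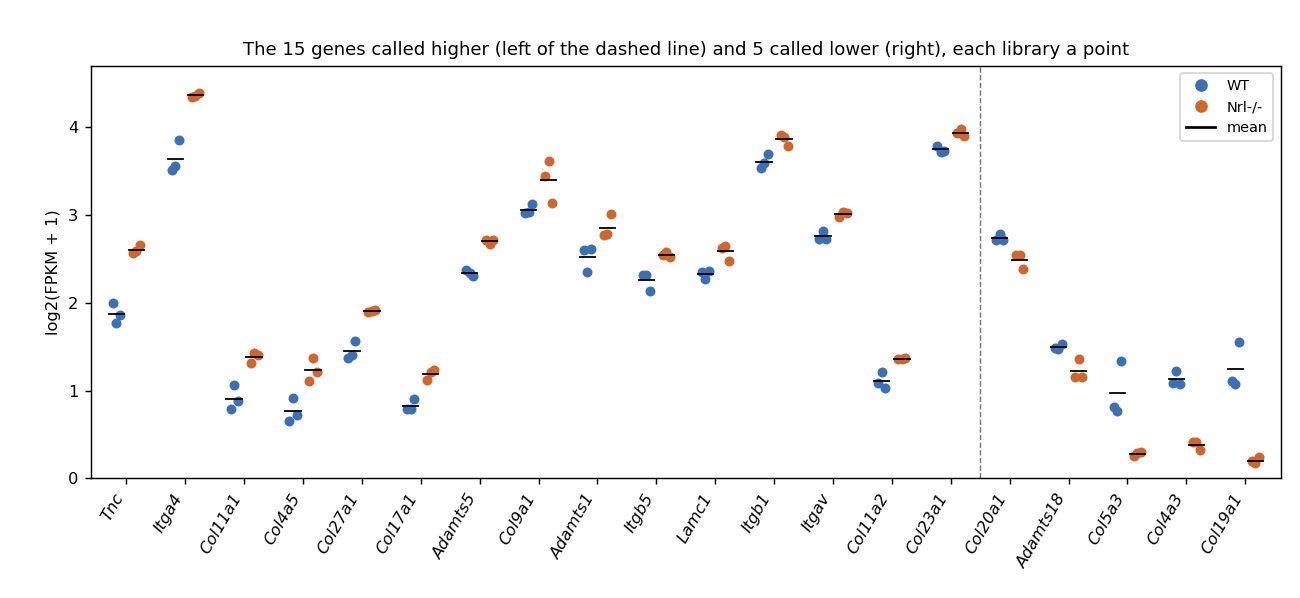
Log2(FPKM + 1) of the 20 called members in each library, with a bar at the mean of each genotype. The genotypes do not overlap for any of them, and WT replicate 3 sets the spread of Col19a1 and Col5a3.

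The upstream sequences of the members with a fold of at least 1.5 are shown because these 5 genes carry the largest changes on the log2(FPKM + 1) scale, and that of Col4a1 and Col4a2 because their starts face each other. RefSeq promoter windows (assembly GRCm38.p6, a later build than that of the tables) were matched by symbol for 48 of 66 members, in 54 windows, and Col4a3 is named only. Each sequence holds the 250 bases before the annotated start, 5′ to 3′ on the gene's own strand, in lower case with a TATAAA match in capitals.
Tnc, chr4:64046937-64047186, minus strand: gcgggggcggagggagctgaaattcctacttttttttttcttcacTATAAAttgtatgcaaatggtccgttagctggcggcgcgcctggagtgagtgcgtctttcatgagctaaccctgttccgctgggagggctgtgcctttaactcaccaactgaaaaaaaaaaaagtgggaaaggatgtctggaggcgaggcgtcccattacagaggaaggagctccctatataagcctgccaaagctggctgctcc
Itga4, chr2:79255176-79255425, plus strand: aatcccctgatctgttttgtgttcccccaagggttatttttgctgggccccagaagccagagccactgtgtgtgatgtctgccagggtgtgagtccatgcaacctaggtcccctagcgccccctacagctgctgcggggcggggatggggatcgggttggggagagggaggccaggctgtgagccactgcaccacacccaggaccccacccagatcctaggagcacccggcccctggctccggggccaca
Col19a1, chr1:24587438-24587687, minus strand: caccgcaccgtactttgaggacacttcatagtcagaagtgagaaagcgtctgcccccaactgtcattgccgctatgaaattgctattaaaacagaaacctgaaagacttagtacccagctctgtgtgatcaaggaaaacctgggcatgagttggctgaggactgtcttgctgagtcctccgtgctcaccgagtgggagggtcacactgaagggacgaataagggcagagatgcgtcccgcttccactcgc
Col5a3, chr9:20815068-20815317, minus strand: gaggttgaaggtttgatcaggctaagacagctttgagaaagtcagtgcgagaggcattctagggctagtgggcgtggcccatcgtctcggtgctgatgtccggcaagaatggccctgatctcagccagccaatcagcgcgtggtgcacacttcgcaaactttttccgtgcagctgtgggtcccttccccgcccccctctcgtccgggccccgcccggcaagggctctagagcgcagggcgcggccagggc
Col4a1, chr8:11312827-11313076, minus strand: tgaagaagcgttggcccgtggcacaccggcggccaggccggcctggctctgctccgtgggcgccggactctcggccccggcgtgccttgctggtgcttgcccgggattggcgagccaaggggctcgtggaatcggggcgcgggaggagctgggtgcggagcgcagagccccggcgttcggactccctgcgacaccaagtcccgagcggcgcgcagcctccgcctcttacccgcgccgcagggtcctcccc
Col4a2, chr8:11312555-11312804, plus strand: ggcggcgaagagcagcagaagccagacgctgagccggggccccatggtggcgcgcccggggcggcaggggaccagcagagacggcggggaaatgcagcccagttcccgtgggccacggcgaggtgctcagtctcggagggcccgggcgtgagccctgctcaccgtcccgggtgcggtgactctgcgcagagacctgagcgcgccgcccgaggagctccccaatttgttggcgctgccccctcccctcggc

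The windows were searched on both strands for TATAAA, the core promoter element bound by TBP, for the AP-1 element TGANTCA, and for TAATCC, the element bound by the photoreceptor factors CRX and OTX2. TATAAA stood in the Tnc window shown at -205 from the start and in none of the other 5 shown. A second Tnc window, not shown, lies before another annotated start, and there the same site stands at -126. TATAAA was in 6 of the 54 member windows, 11.1%, and in 12.4% of all 32851 windows. The Tnc site is counted under both of its windows. Other TATA-like letters were not searched for. TGANTCA was in the window of Col6a1 alone, 1.85% of member windows against 6.75% of all, and TAATCC in that of Lamb2 alone, 1.85% against 6.25%. These matches are descriptions of letters and not of binding. Member windows were richer in G and C, with a median of 62.0% against 52.4% over all windows.

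Fibrillar collagens build the banded fibers of vitreous, sclera and vessel walls. Of 6 members 3 rose and 1, Col5a3, fell, beside 28.3% and 10.2% of all symbols. Col2a1, the chain of the main vitreous collagen, was the most abundant at 3.22 ± 0.284 FPKM (SD, n = 3) in WT and 3.21 ± 0.528 in Nrl-/- retina, and its log2 change of -0.01 (standard error 0.10) did not pass. Col11a1, whose chain of type XI collagen starts fibril assembly, had an FPKM of 0.729, 1.08 and 0.840 in WT and 1.5, 1.69 and 1.66 in Nrl-/- retina. This was a log2 change of 0.48 (standard error 0.10, limma adjusted p = 0.0044), and no Nrl-/- library was as low as any WT library. Col27a1, which encodes a fibrillar collagen of cartilage, had an FPKM of 1.58, 1.66 and 1.97 in WT and 2.71, 2.76 and 2.78 in Nrl-/- retina. This gave a log2 change of 0.46 (standard error 0.08, limma adjusted p = 0.0021). Col11a2, the other type XI chain measured, changed by 0.25 (adjusted p = 0.041), a call that was lost under all 4 other scalings, with adjusted p from 0.11 to 0.12. Col1a2, a chain of type I collagen, was low at 0.558, 0.424 and 1.48 in WT and 0.840, 0.892 and 0.602 in Nrl-/- retina, and WT replicate 3 lay above all other libraries.

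Network collagens form sheets in place of fibers. Of 7 members 1, Col4a5, rose and 1, Col4a3, fell, beside 28.3% and 10.2% of all symbols. Col4a1 and Col4a2, the chains of the type IV collagen found in nearly all basement membranes, were the most abundant. Col4a1 had an FPKM of 5.23, 4.62 and 4.86 in WT and 6.16, 6.31 and 5.06 in Nrl-/- retina. Col4a2 had an FPKM of 4.86, 4.10 and 4.46 in WT and 5.36, 5.68 and 4.90 in Nrl-/- retina. The partners kept almost equal levels in every library, and both had a log2 change of 0.21, with standard errors of 0.09 and 0.08 and limma adjusted p of 0.089 and 0.069. Their annotated starts lie 21 bases apart and their transcripts run in opposite directions. Col18a1, whose chain carries the endostatin fragment, changed by -0.17 (standard error 0.17), with 0.741 FPKM in Nrl-/- replicate 3 against 1.41 to 1.87 in the other 5 libraries. Its other transcript, NM_001109991, changed by 0.16 (standard error 0.22), at 1.08 FPKM in Nrl-/- replicate 3 and 0.444 in WT replicate 3. With FPKM summed per symbol the change was -0.04.

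The remaining 12 collagens are fibril-associated, transmembrane, beaded or anchoring types, and 3 rose and 2 fell, beside 28.3% and 10.2% of all symbols. Col23a1, a transmembrane collagen, was the most abundant collagen of the set and had an FPKM of 12.8, 12.2 and 12.3 in WT and 14.3, 14.8 and 13.9 in Nrl-/- retina. Its log2 change of 0.19 (standard error 0.06, limma adjusted p = 0.023) went to 0.09 to 0.10 under the other scalings, where it did not pass. Col6a1, a chain of the beaded type VI filaments, came next at 11.8 ± 1.58 in WT and 12.2 ± 1.70 in Nrl-/- retina (SD, n = 3), with a log2 change of 0.04 (standard error 0.11). Col6a2 encodes the chain that pairs with it and was at 2.28 and 1.92, with a log2 change of -0.16 (adjusted p = 0.15).

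Type IX collagen coats vitreous fibrils, and its 3 chains were at unlike levels. Col9a1 was the highest at 7.11, 7.17 and 7.69 FPKM in WT and 9.93, 11.3 and 7.82 in Nrl-/- retina. Nrl-/- replicate 3 lay just above the highest WT library, and the log2 change of 0.35 (standard error 0.11, limma adjusted p = 0.036) was lost under all 4 other scalings. Col9a3 changed by 0.22 (adjusted p = 0.18) and Col9a2 by -0.01 (adjusted p = 0.97), at mean FPKM of 2.08 and 1.14 over the 6 libraries. Col17a1, the transmembrane collagen of hemidesmosomes, had an FPKM of 0.729, 0.729 and 0.879 in WT and 1.17, 1.31 and 1.35 in Nrl-/- retina. The rise was 0.36 on the log2 scale (standard error 0.09, limma adjusted p = 0.011), and this gene too entered the table through Nrl-/- libraries alone. Col20a1, a fibril-associated collagen, fell from 5.59, 5.87 and 5.59 to 4.82, 4.86 and 4.21, a log2 change of -0.25 (standard error 0.07, limma adjusted p = 0.022). Col7a1, the anchoring fibril collagen of skin, and Col12a1, another fibril-associated chain, changed by 0.22 and 0.21 and missed the threshold at adjusted p of 0.052 and 0.074. Col25a1, a transmembrane collagen of neurons, changed by -0.04 (standard error 0.11).

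Laminins are cross-shaped trimers of an alpha, a beta and a gamma chain that seed basement membranes, and nidogens tie them to type IV collagen. Of 7 members 1 rose and 0 fell, beside 28.3% and 10.2% of all symbols. Lamc1, the gamma chain of most laminins, had an FPKM of 4.10, 3.82 and 4.13 in WT and 5.19, 5.28 and 4.58 in Nrl-/- retina. Its log2 change was 0.26 (standard error 0.07, limma adjusted p = 0.021), and 0.17 to 0.20 under the other scalings, where it did not pass. The beta chains Lamb1 and Lamb2 had means over the 6 libraries of 3.01 and 2.43 FPKM and log2 changes of 0.07 and 0.01. Lama5, the 1 alpha chain in the table, changed by -0.08 (standard error 0.09) and Lamc3, a gamma chain of retinal and brain laminins, by 0.05. Nid1 changed by 0.22 (adjusted p = 0.17) and Nid2 by 0.16 (adjusted p = 0.50).

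Among the 5 glycoproteins 1, Tnc, rose, beside 28.3% of all symbols. Tnr encodes tenascin R, a protein of nerve cell nets and myelinated fibers, and was the most abundant of them. Its FPKM was 11.1, 8.13 and 7.34 in WT and 7.94, 8.0 and 7.51 in Nrl-/- retina. WT replicate 1 was the highest library and the other 5 lay between 7.34 and 8.13, and the log2 change of -0.14 (standard error 0.12) did not pass. Fn1, which encodes fibronectin, was at 5.93 ± 0.449 in WT and 5.49 ± 0.661 in Nrl-/- retina (SD, n = 3), with a log2 change of -0.10 (adjusted p = 0.44). Tenascin C and tenascin R thus stood at 2.68 and 8.86 FPKM in WT and at 5.09 and 7.82 in Nrl-/- retina.

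Integrin subunits included 4 of 9 that rose and 0 that fell, beside 28.3% and 10.2% of all symbols. A group this small was not tested as a family. Among the alpha subunits Itga4 was the most abundant, followed by Itgav and Itga3. Itgav encodes alpha v, which binds proteins with an RGD motif such as vitronectin, and had an FPKM of 5.63, 6.06 and 5.63 in WT and 6.89, 7.17 and 7.11 in Nrl-/- retina. The rise was 0.25 on the log2 scale (standard error 0.06, limma adjusted p = 0.011). Itgb1, the common beta subunit, had an FPKM of 10.6, 11 and 12 in WT and 14.0, 13.8 and 12.8 in Nrl-/- retina, for a log2 change of 0.26 (standard error 0.07, limma adjusted p = 0.014). Itgb5, the partner of alpha v that the pigment epithelium uses to take up outer segments, had an FPKM of 3.99, 3.99 and 3.41 in WT and 4.86, 4.98 and 4.74 in Nrl-/- retina. The change was 0.29 on the log2 scale (standard error 0.07, limma adjusted p = 0.014), and its other transcript, NM_001145884, went from 3.18 to 4.08 in mean FPKM.

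The calls of Itgav and Itgb1 were lost under all 4 other scalings, with log2 changes of 0.16 to 0.18 and of 0.15 to 0.16. Itgb5 kept its call under quantile normalization alone. Itga4 kept its call under all 4, at 0.62 to 0.63. Itgb8, another beta partner of alpha v, which with it frees TGF-beta from its latent form, was at 3.72, 5.06 and 2.89 in WT and 3.66, 3.11 and 3.59 in Nrl-/- retina. The WT libraries spanned the Nrl-/- ones, and the log2 change was -0.11 (standard error 0.14). The laminin-binding subunits Itga3, Itga6 and Itga7 changed by -0.05, 0.06 and -0.02 and the collagen-binding Itga1 by 0.22, with adjusted p from 0.15 to 0.88.

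**Figure D3:**
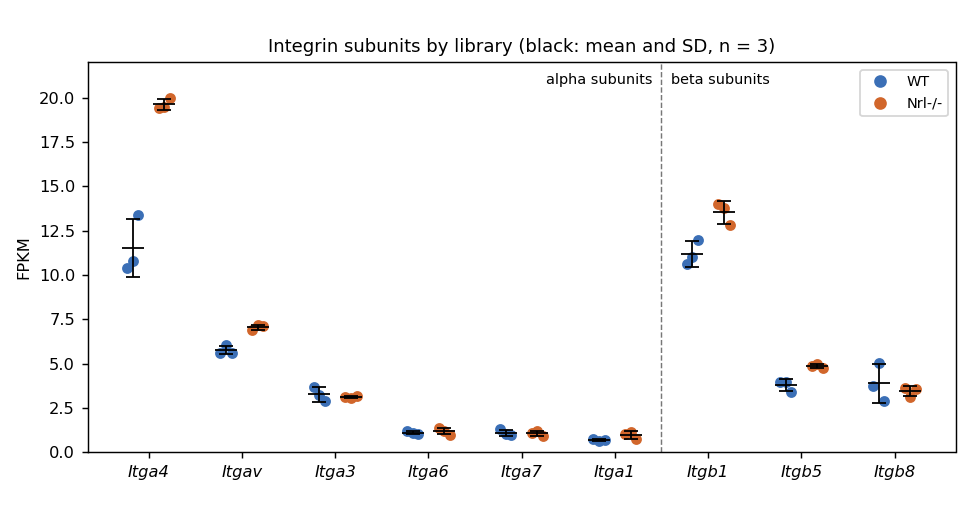
FPKM of the 6 alpha and 3 beta integrin subunits in each library, with the mean and SD of each genotype. The 3 Nrl-/- values of Itga4, from 19.4 to 20, lie above the WT values, from 10.4 to 13.4, and subunits other than Itga4, Itgav, Itgb1 and Itgb5 overlap between genotypes.

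Among the matrix proteases the Adamts genes held all the calls. Of 5 Adamts genes 2 rose and 1 fell, beside 28.3% and 10.2% of all symbols. Adamts5, which cuts aggrecan and versican, had an FPKM of 4.17, 4.06 and 3.92 in WT and 5.59, 5.36 and 5.54 in Nrl-/- retina. Its log2 change was 0.36 (standard error 0.06, limma adjusted p = 0.0018). Adamts1, its neighbor on chromosome 16, also a proteoglycan-cutting enzyme, had an FPKM of 5.06, 4.10 and 5.11 in WT and 5.82, 5.87 and 7.06 in Nrl-/- retina. Its log2 change of 0.33 (standard error 0.10, limma adjusted p = 0.025) was lost under all 4 other scalings, while that of Adamts5 passed under each, at 0.28 to 0.30. Adamts18, whose loss disturbs eye development in mouse, fell from 1.79, 1.77 and 1.89 to 1.23, 1.57 and 1.22, a log2 change of -0.27 (standard error 0.09, limma adjusted p = 0.038). Adamts3, which trims procollagens, changed by 0.19 (adjusted p = 0.13) and Adamts10, a partner of fibrillin, by 0.22 (adjusted p = 0.066).

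Of 7 Mmp genes 0 were called by limma, 0 by the ordinary linear model, and 1, Mmp2, had an unadjusted p under 0.05. Of all symbols limma called 28.3% higher and 10.2% lower, and so small a group was not tested as a family. The gelatinase Mmp2 had an FPKM of 5.28, 4.5 and 5.41 in WT and 6.16, 5.68 and 6.01 in Nrl-/- retina, which did not overlap, for a log2 change of 0.20 (standard error 0.08, limma adjusted p = 0.070). The other gelatinase, Mmp9, had a log2 change of -0.15 (adjusted p = 0.25). The membrane-bound Mmp14, Mmp15, Mmp16, Mmp17 and Mmp24 changed by -0.13, -0.26, 0.04, -0.12 and 0.13. Mmp24 was the most abundant Mmp, at 6.51 ± 0.530 in WT and 7.23 ± 0.342 in Nrl-/- retina (SD, n = 3). Timp2, which blocks these enzymes and also helps to activate Mmp2, had the highest FPKM of all 66 members, at 21.9, 18.6 and 20.3 in WT and 20.3, 20.6 and 18.0 in Nrl-/- retina, with a log2 change of -0.04 (standard error 0.08).

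The 4 Adamtsl genes encode matrix proteins that look like Adamts enzymes but lack the protease part. Of these 0 were called by limma or by the ordinary linear model, and 0 had an unadjusted p under 0.05. Adamtsl4, Adamtsl1 and Adamtsl2 were the most abundant, and their log2 changes were -0.16, 0.01 and 0.07. The patterns also took in 3 genes that carry a collagen or integrin name only as a partner. Col4a3bp encodes a ceramide carrier, Itgb1bp1 an adaptor of the beta 1 tail and Itgb3bp a centromere protein. Their log2 changes were -0.07, -0.03 and -0.08, of which 0 were called by limma or the ordinary linear model and 0 had an unadjusted p under 0.05. Without them 15 of 63 members rose and 5 fell, beside 28.3% and 10.2% of all symbols.

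Some members followed single libraries more than genotype. Col8a1 and Col8a2 encode the chains of the hexagonal collagen of Descemet's membrane. Col8a1 had an FPKM of 2.29, 3.92 and 1.45 in WT and 3.92, 3.47 and 2.76 in Nrl-/- retina. Col8a2 had an FPKM of 1.22, 2.32 and 0.338 in WT and 1.48, 1.60 and 1.07 in Nrl-/- retina. In WT both genes ranked the libraries as the pigment epithelium markers did, whose summed FPKM was 50.2, 93.4 and 14.1 in WT and 58.3, 72.9 and 40.3 in Nrl-/- retina, and the part of that tissue in their levels was not tested. Within Nrl-/- retina the markers parted. Rpe65, Lrat, Ttr, Rgr and Rdh5 were highest in replicate 1 and lowest in replicate 3, as Col8a1 was. Pmel, Tyrp1 and Dct were highest in Nrl-/- replicate 2, at 10.2, 6.01 and 18.0 FPKM. The log2 changes of Col8a1 and Col8a2 were 0.35 (adjusted p = 0.24) and 0.15 (adjusted p = 0.71). Without WT replicate 2 that of Col8a1 was 0.62 (limma adjusted p = 0.021), and without WT replicate 3 that of Col8a2 was -0.19 (adjusted p = 0.43).

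Nrl-/- replicate 2 held a second set. Fbln1, which encodes the basement membrane and elastic fiber protein fibulin 1, had an FPKM of 0.357, 0.257 and 0.301 in WT and 0.283, 2.86 and 0.165 in Nrl-/- retina. Fbn1, the main chain of microfibrils, was at 2.12 in that library against 1.25 to 1.58 in the other 5, and Nid2 at 1.03 against 0.283 to 0.670. Outside the set, the eye protein opticin gene Optc had an FPKM of 6.73 in the same library against 0.173 to 0.853 elsewhere, and the microfibril gene Mfap4 2.78 against 0.0943 to 0.464. Optc was 1 of 3 lens and ciliary epithelium markers with a value, and the others did not share its peak. Cryaa was at 0.0281 in that library against 0.659 to 3.0 in WT, and Aqp1 at 1.45 against 38.9 to 43.9. The part of adhering tissue in these values was not tested. Without this library the log2 change of Fbln1 went from 0.46 (standard error 0.38) to -0.09 (standard error 0.12, adjusted p = 0.62), that of Fbn1 from 0.02 to -0.14 (adjusted p = 0.35) and that of Nid2 from 0.16 to 0.00 (adjusted p = 0.99). Over the whole set, 31 of 66 members were highest in Nrl-/- replicate 2 within their genotype and 38 were lowest in Nrl-/- replicate 3. The matching counts over all symbols were not made, so these counts are not read as a trait of the set.

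**Figure D4:**
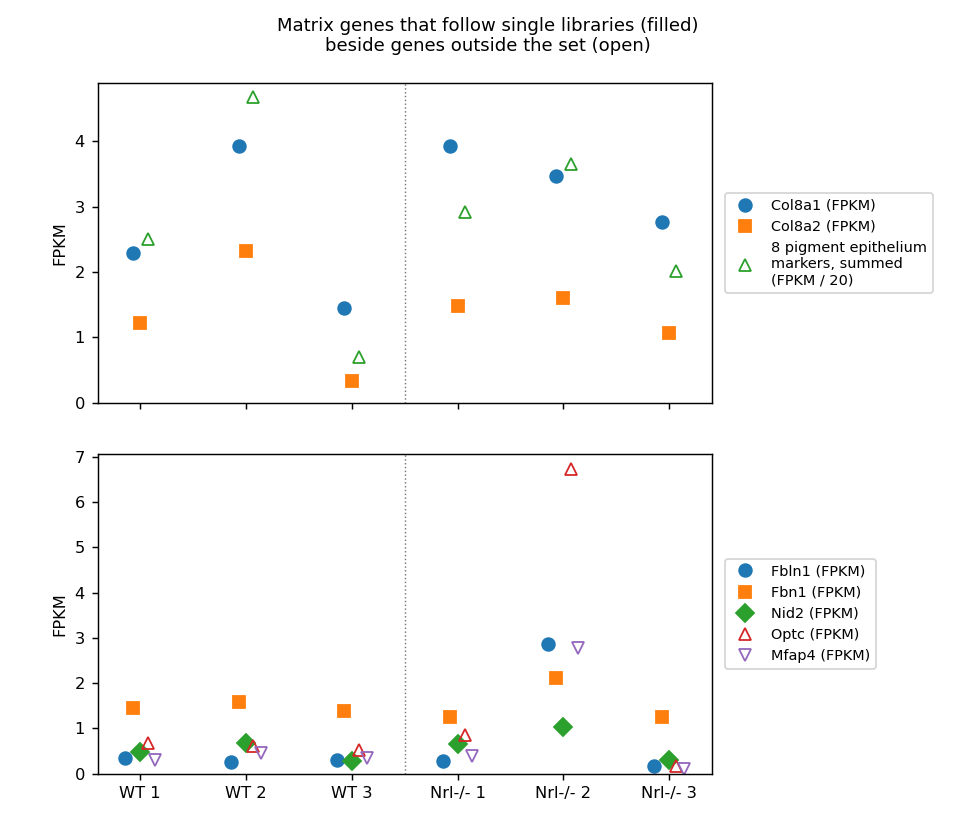
FPKM in each library of Col8a1 and Col8a2 beside the summed pigment epithelium markers (divided by 20 to share the axis), and of Fbln1, Fbn1 and Nid2 beside Optc and Mfap4. In WT the Col8 genes peak in replicate 2 with the markers, and the lower group peaks in Nrl-/- replicate 2, at 2.86 for Fbln1 and 6.73 for Optc.

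The machinery around these proteins was read from lists of other genes, which were counted with no test of the list and are read beside the 28.3% of all symbols that rose and the 10.2% that fell (17.2% and 15.5% with median-of-ratios scaling). For collagen folding and crosslinking 8 of 20 measured genes rose and 0 fell, and 6 rose and 1 fell with median-of-ratios scaling. Leprel2, a prolyl 3-hydroxylase of collagen, was the largest rise there, from 5.68, 6.89 and 7.22 FPKM in WT to 20.1, 20.1 and 17.9 in Nrl-/- retina (log2 change 1.43, standard error 0.09, limma adjusted p = 2.6e-06). Bmp1, which cuts the end peptide from procollagens, went from 1.59 ± 0.233 to 3.09 ± 0.0864 FPKM (SD, n = 3, limma adjusted p = 0.00036). Among 27 genes of the integrin adhesion and dystroglycan complexes 6 rose and 4 fell. Parvb, which encodes beta-parvin, a partner of integrin-linked kinase, rose from 9.13, 7.63 and 7.34 to 75.1, 74.6 and 63.0 FPKM (log2 change 2.99, standard error 0.09, limma adjusted p = 2.7e-08), more than any integrin. Sntb2, a syntrophin of the dystrophin complex, fell by 1.65 on the log2 scale (limma adjusted p = 1.8e-07).

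Among 30 other matrix glycoproteins 6 rose and 3 fell. Vtn encodes vitronectin, a ligand of the alpha v integrins, and was at 240, 246 and 198 FPKM in WT and 117, 111 and 135 in Nrl-/- retina, a log2 change of -0.91 (standard error 0.10, limma adjusted p = 0.00011). Of 18 proteoglycans and link proteins 3 rose and 2 fell, led by the syndecans Sdc2, at 9.45 ± 0.595 in WT and 16.4 ± 0.602 in Nrl-/- retina, and Sdc3, at 27.8 ± 3.47 and 10.9 ± 0.298 (SD, n = 3, limma adjusted p = 2.4e-05 and 4.3e-06). Of 19 other proteases and inhibitors 5 rose and 1 fell, and that 1 was Cst3, the cysteine protease inhibitor cystatin C, at 330 ± 24.7 FPKM in WT and 147 ± 8.47 in Nrl-/- retina (limma adjusted p = 2.5e-06). With median-of-ratios scaling the counts of these 4 other lists were 4 higher and 5 lower for the adhesion complexes, 1 and 3 for the glycoproteins, 2 and 4 for the proteoglycans, and 2 and 3 for the proteases.

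The authors also deposited 1 pooled FPKM per genotype from TopHat alignments, which carries no replicate check. It comes from the same reads of the same 6 libraries, so a shared direction is no separate evidence for a call. Of the 20 called members all had such a value, and for 19 the summed isoforms differed between genotypes in the same direction as in the BWA table. The exception was Col11a2, at 2.28 in WT and 1.35 in Nrl-/- retina. Col19a1 was at 1.34 and 0.0876, Col4a3 at 1.13 and 0.366, Col5a3 at 1.80 and 0.373, and Itga4 at 9.0 and 15.6. For Tnc the sum went from 3.80 to 7.03, but the 2 assembled isoforms moved in opposite directions, 1 from 0.126 to 6.38 and the other from 3.67 to 0.649. Isoforms of a gene share reads, and which of them took a read was estimated by the authors.

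**Figure D5:**
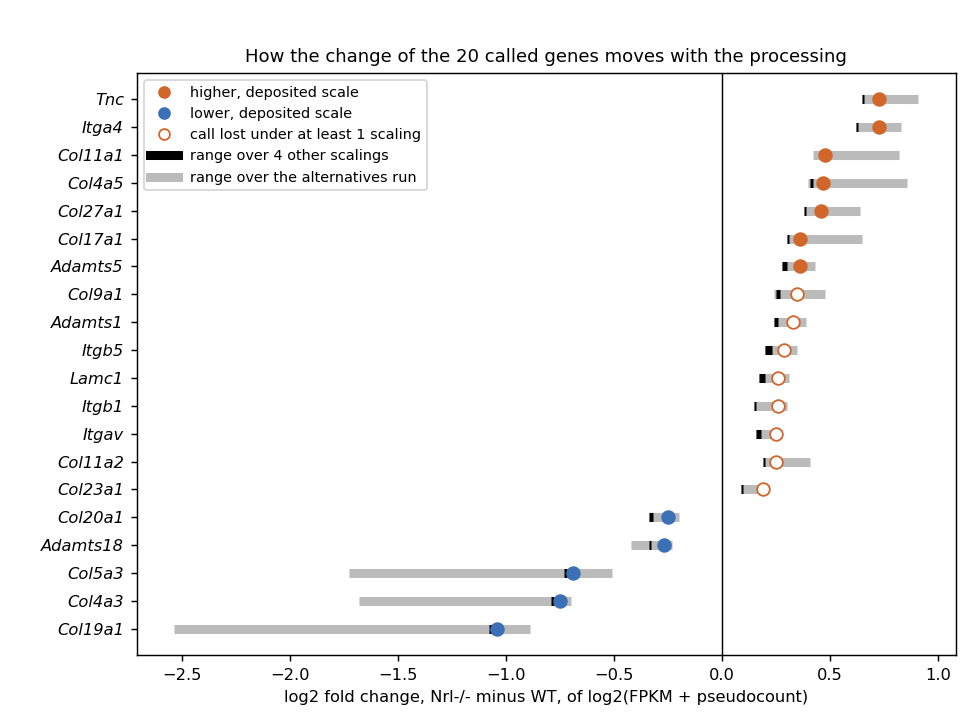
Log2 fold change of the 20 called members on the deposited scale (points), its range over 4 other scalings (black) and over the 17 to 19 alternatives that tested it (gray), which include smaller pseudocounts. Open points, 8 of 15 rises, lost their call under at least 1 scaling, and no called member changes sign.

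Under every alternative that tested them, 8 of the 20 calls held, those of Col11a1, Col27a1, Col4a3, Col17a1, Col19a1, Tnc, Itga4 and Adamts5. Of these Col4a3, Col17a1 and Col19a1 entered the table through 1 genotype alone, and 10 of the 20 called members were tested under all 19 alternatives. The 5 falls passed under all 4 other scalings. These moved the median over all symbols by -0.08 to -0.09, which enlarges a fall and shrinks a rise. Passing there is thus no separate evidence for the falls and does not make them firmer than the rises. The 8 rises lost under such a scaling were Col11a2, Col9a1, Col23a1, Lamc1, Itgav, Itgb1, Itgb5 and Adamts1, each with a log2 change of 0.35 or less on the deposited scale. Leaving out single libraries moved the smaller changes across the threshold in both directions. Calls were lost for Col11a2, Col9a1 and Adamts18 without WT replicate 1, for Col9a1, Col20a1, Col23a1, Lamc1, Adamts1 and Adamts18 without WT replicate 2, and for Col11a2 and Adamts18 without WT replicate 3. They were lost for Col11a2, Col9a1, Col20a1, Col23a1, Lamc1, Itgb1, Itgb5 and Adamts18 without Nrl-/- replicate 1, for Col11a2, Col9a1, Col23a1, Lamc1, Itgav, Itgb1 and Itgb5 without Nrl-/- replicate 2, and for Col11a2, Col20a1, Adamts1 and Adamts18 without Nrl-/- replicate 3. Calls were gained for Col4a2 and Mmp24 without WT replicate 1, Col8a1 without WT replicate 2, Col7a1, Mmp2 and Adamts3 without WT replicate 3, and Col4a1, Nid1 and Itga1 without Nrl-/- replicate 3.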

How the data were processed

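Members and gene lists were chosen with earlier results of these data known. Single reads of 6 libraries were aligned by the authors with BWA to mm9, and FPKM per refFlat transcript came from Partek. The deposited mRNA table holds log2(FPKM + 1) to 2 decimals and leaves out transcripts whose FPKM was below 1 everywhere. Values here called FPKM were turned back from these deposited log2 values. The TopHat table deposited by the authors holds 1 pooled Cufflinks FPKM per genotype and was given as such. The columns in which they gave fold changes and p-values were not used.

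The log2 values were fitted on genotype with limma 3.58.1 in R 4.3.3 (prior variance with a trend), with Benjamini-Hochberg adjustment over 15142 transcripts. P-values measure the spread between these libraries. Other steps used Python 3.11.15 with pandas 2.3.3, numpy 2.4.6 and matplotlib 3.10.9. The fit was tested on simulated data. Positions are those of GENCODE on NCBIM37, and promoters those of RefSeq on GRCm38.p6. Exact permutation of 3 against 3 libraries cannot give a p below 0.1 and was not used.

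The rule named up to 12 rises and 12 falls that passed without overlap, the 3 most abundant members of each role, and 2 rises and 2 falls of each outside list, of which 1 is not reported here. Other members were given with their role group, to complete a subunit set or for counts of 5 or fewer. Fbln1, Fbn1, Nid2, Col8a2, Col18a1, Col1a2, Optc, Mfap4 and Cerkl were singled out after their values were seen. Alternatives were pseudocounts of 0.1 and 0.5, stricter FPKM filters, other variance models, 4 scalings, FPKM summed per symbol, the replicate number as a block, and each library left out in turn.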

Additional observations from a re-analysis of the deposited data

Results flagged for a closer look

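The table of noncoding transcripts was not part of the comparison, and it holds 2 noncoding transcripts of Adamts10 that were higher in Nrl-/- than in WT retina. NR_037707 had a mean FPKM of 1.77 in Nrl-/- and 1.39 in WT retina, and NR_037708 of 1.65 and 1.28, with every Nrl-/- library above every WT library. They share exons, and so reads, with the coding transcript of Adamts10.

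Of 5 member symbols with a pooled TopHat value and none in the BWA mRNA table, 2 were higher and 3 lower in Nrl-/- retina. Timp1, an inhibitor of matrix metalloproteinases, had a pooled FPKM of 1.75 in Nrl-/- and 0.359 in WT retina, and Lama4, a laminin alpha chain of vessel walls, of 1.09 and 0.813. Lower were Itga10, at 0.581 in Nrl-/- and 1.11 in WT retina, Col5a1, at 0.917 and 1.12, and Lama1, at 0.917 and 1.08. A pooled value has no replicate check, and these differences were not tested.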

How the results depend on the processing

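The counts of 15 higher and 5 lower members depended on scaling, on the filter and on single libraries. The number of members higher in Nrl-/- retina was 7 with median-of-ratios scaling, 7 with upper-quartile scaling, 8 with quantile normalization, 7 with a scaling without the 25 highest transcripts and 9 when 1 library had to reach an FPKM of 5, where 24 members were tested. It ran from 8 to 17 when each library was left out. The number lower was 1 with that filter and 3 with the ordinary linear model, and ran from 3 to 5 over the libraries left out. Members higher by at least 1.5-fold went from 2 to 4 with a pseudocount of 0.5 and to 6 with 0.1, since a smaller pseudocount enlarges folds of low genes, and ran from 2 to 3 without single libraries. Members lower by at least 1.5-fold were 0 with that filter, which removes those genes, and ran from 2 to 3 without single libraries. The median log2 fold change of members was 0.19 with that filter and ran from 0.02 to 0.11 without single libraries. Residuals of same-numbered libraries correlated at 0.0286, 0.0237 and 0.124, so the numbers were not taken as pairs. With a replicate block 14 members were higher and 5 lower, with Col11a2 and Adamts18 lost and Mmp15 gained. No called member changed sign, and 20 members that were not called did so under some alternative. Where no cause is given above, the cause was not tested. Without counts, the number of reads behind a value cannot be given, and genes near an FPKM of 1 are the least certain.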
